A study of Mus musculus with 20 samples.

Results

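The genes described here are 10 regulators of cell cycle arrest, stress signalling and growth, Btg1, Btg2, Gadd45a, Gadd45b, Gadd45g, Cdkn1a, Mdm2, Myc, Plk2 and Plk3. They were taken by symbol from both deposited abundance tables, where they are 10 of 21509 protein-coding genes, and all 10 were above the filter on low values in each table. The series holds 20 RNA-seq libraries of DC2 cells, an immortalized line of mouse distal caput principal cells, the absorptive and secretory cells of the upper epididymis. In the first experiment, 6 libraries came from cells under flow, with a shear stress of 1 dyn/cm2 acting for 3 h, and 6 from static cells that had no flow. In the second, 4 libraries came from cells given Ift88 siRNA and 4 from cells given control siRNA, and the paper's text, but not the sample labels, places both of these groups under shear stress. Ift88 encodes an intraflagellar transport protein needed to build the primary cilium, the siRNA was a mixture against several coding sequences of it, and the control siRNA was a scrambled sequence. DC2 cells are a single line from mice that carry a temperature-sensitive SV40 large T antigen, a protein that binds p53 and the retinoblastoma protein, and every group shares this background. According to the methods the cells were grown in microfluidic channels and held in low-serum medium before flow. In the paper the line stands for differentiated adult principal cells, and it is used to mimic shear in early post-natal development. The strain is not given in the sources used here. The methods count 6 experimental replicates under static conditions and 6 under flow. The labels do not say whether libraries of a group came from separate cultures, so p-values measure the spread between these libraries, which may be technical.

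Values are TPM, each library's transcript abundances corrected for transcript length and scaled to a fixed sum, so levels of different genes can be compared within a table. The deposited TPM keep no total of reads, so the depth of each single library is unknown, and the methods give only a mean over samples. Between 15543 and 16562 genes were above 0 in the libraries of the flow experiment and between 15292 and 16682 in those of the siRNA experiment. Mitochondrial transcripts made up 4.40% to 7.44% of TPM under flow and 4.43% to 9.60% in static cells. Markers of the labelled cell type were mixed. Pax2, Pax8, Krt18, Krt19 and Cftr were detected. Epcam, Krt8, Cdh1, Cldn7 and the principal cell markers Aqp9, Lcn5, Adam7 and Rnase10 averaged at most 1.05 TPM in either experiment. Crisp1, another principal cell marker, was listed at 0 in every library. Of the immune markers, Cd68 alone averaged over 1 TPM, with a mean of 21.4 TPM in the flow experiment and 93.8 TPM in the siRNA experiment. Cd3e was listed at 0 in every library. Adgre1 was at 0 throughout the flow experiment and reached 0.0813 TPM in the siRNA experiment. The labels of flow replicate 6 conflict, since its title says flow and its treatment entry says static, and the title was followed. Flow replicate 2 stood closer to the static libraries than the other flow libraries did for most of the 10 genes.

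These genes act at the point where a cell decides between division and arrest. BTG proteins restrain proliferation by bringing the CCR4-NOT deadenylase to messenger RNAs. The GADD45 proteins are small stress sensors that bind the kinase MAP3K4, PCNA and the CDK1 complex. p53 activates Cdkn1a, which encodes the CDK inhibitor p21, and Mdm2, which encodes the ubiquitin ligase that degrades p53. Myc, the growth-promoting transcription factor, is induced quickly by serum and other signals, and the polo-like kinases PLK2 and PLK3 are induced early by serum or by stress. Many of these genes have short-lived transcripts and are known as immediate-early or delayed-early genes in many cell types.

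The promoters of the genes are given first, since 5 of the genes passed the test for flow once libraries were paired by number, and 4 of these have a promoter entry that can be compared for shared letters. RefSeq promoters on GRCm38.p6, running from 250 bases before to 50 bases after an annotated start, were matched by symbol for all members but Myc, that is for 9 of 10, with 2 entries for Cdkn1a. The windows of Btg2, Plk2, Plk3 and Gadd45g are printed because these genes had the largest mean differences under flow among the genes with a promoter entry. Letters are 5′ to 3′ on the gene's strand, and capitals mark the cyclic AMP response element (CRE, TGACGTCA) or the short CRE (TGACG, read as CGTCA on the other strand).
Btg2, chr1:134079106-134079405, minus strand: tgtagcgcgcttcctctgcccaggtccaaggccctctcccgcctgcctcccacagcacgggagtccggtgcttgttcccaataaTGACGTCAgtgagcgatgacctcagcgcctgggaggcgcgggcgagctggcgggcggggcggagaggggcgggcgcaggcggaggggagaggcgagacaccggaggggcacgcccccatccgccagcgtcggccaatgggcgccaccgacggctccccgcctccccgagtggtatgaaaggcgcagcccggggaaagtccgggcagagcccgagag
Plk2, chr13:110394794-110395093, plus strand: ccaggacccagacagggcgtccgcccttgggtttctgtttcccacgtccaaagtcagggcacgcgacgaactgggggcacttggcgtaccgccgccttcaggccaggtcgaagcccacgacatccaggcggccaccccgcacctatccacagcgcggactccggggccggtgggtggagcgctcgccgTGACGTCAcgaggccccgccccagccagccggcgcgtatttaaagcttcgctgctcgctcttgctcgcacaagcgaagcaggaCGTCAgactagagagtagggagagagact
Plk3, chr4:117133914-117134213, minus strand: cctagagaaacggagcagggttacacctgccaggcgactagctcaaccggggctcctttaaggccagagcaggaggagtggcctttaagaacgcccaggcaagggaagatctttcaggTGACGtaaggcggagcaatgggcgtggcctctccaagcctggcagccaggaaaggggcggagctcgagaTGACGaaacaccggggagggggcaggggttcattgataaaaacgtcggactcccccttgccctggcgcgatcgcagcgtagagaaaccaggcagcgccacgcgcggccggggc
Gadd45g, chr13:51846425-51846724, plus strand, with no CRE or short CRE: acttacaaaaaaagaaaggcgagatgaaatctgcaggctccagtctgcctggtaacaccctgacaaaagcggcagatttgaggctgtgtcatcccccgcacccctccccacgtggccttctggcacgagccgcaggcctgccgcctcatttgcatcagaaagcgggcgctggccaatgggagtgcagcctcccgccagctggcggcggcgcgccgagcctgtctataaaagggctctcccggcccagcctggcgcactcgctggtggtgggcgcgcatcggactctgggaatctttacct

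Motifs were searched by letters on both strands. The full CRE was present in Btg2, starting 166 bases before the start, and in Plk2, starting 62 bases before it, and in 1.79% of the 32851 promoters of the same length in the table. The short CRE, which the full CRE contains on each strand, was present in 5 of 9 genes (Btg1, Btg2, Mdm2, Plk2 and Plk3) and in 20.8% of all promoters. In Plk3 it occurred without the full CRE, starting 132 and 63 bases before the start. The AP-1 letters TGANTCA and the CArG box of serum response factor were found in none of the 9, and in 7.81% and 1.63% of all promoters. The decamer element of p53 was found in Gadd45a, Cdkn1a and Mdm2 and in 8.36% of promoters. The E-box CACGTG was found in Gadd45b and Gadd45g (7.15% of promoters) and the EGR site GCGNGGGCG in Btg2 and Gadd45b (5.55%). The GC box GGGCGG was found in 8 of 9 genes (35.7% of promoters), CCAAT in 6 (37.4%), TATAAA in 3 (13.6%) and the TEAD letters GGAATG in none (14.7%). The windows held 54.7% to 72.0% G and C, against a median of 52.7% over all promoters. A match of letters describes the window and is not evidence of binding.

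**Figure D1:**
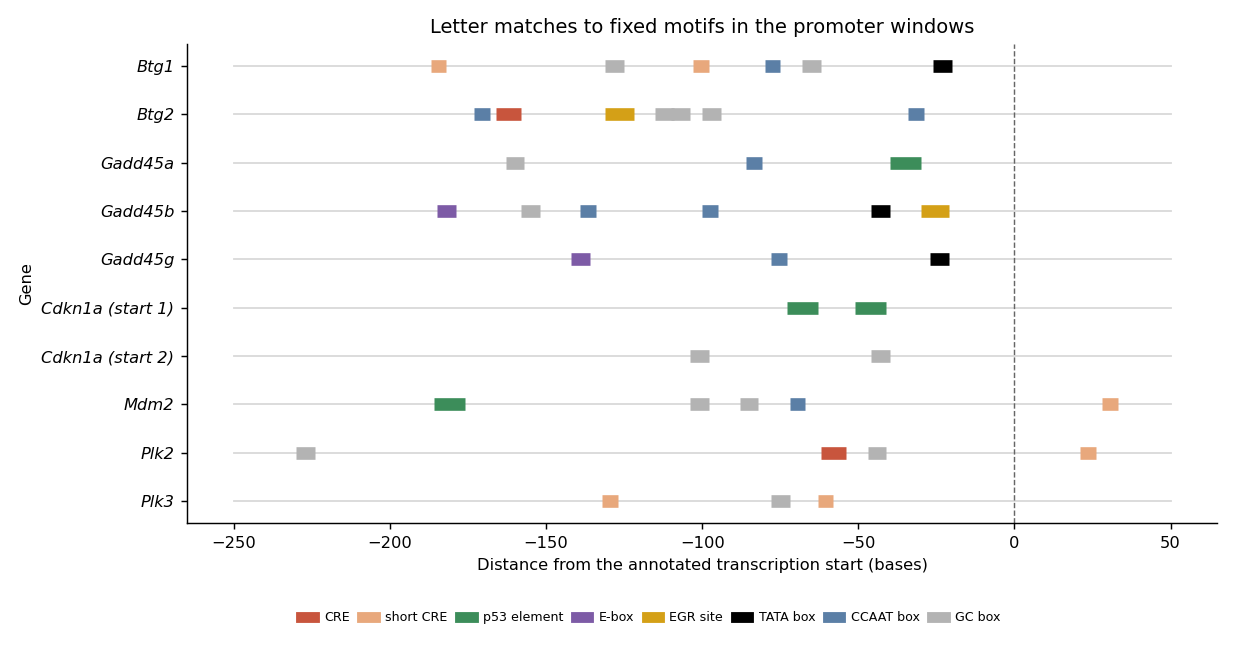
Motif matches in the promoter windows of the 9 genes with an entry, by distance in bases from the annotated start (dashed line), with the 2 starts of Cdkn1a on separate lines and short CREs inside a full CRE left out. Full CREs are seen in Btg2 and Plk2, and p53 elements in Gadd45a, Mdm2 and the first start of Cdkn1a.

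The first comparison asked what shear stress did to these genes. Without pairing of libraries, 0 of the 10 genes were called (limma on log2(TPM + 1), with an adjusted p under 0.05 and over 1.5-fold), while 0.105% of the 11388 genes tested were called higher. At an unadjusted p under 0.05 stood 8 of the 10, against 3.85% of all genes. No label or text of the paper pairs the libraries. The replicate numbers were taken to pair flow with static libraries from correlations of these same libraries, though static replicate 1 was closest to flow replicate 3. In a fit with this pairing as a replicate block, 5 of the 10 were called higher, Btg2, Gadd45g, Myc, Plk2 and Plk3, against 0.597% of all genes. With the block 9 of the 10 stood at an unadjusted p under 0.05, against 11.1% of all genes. The mean of 9 of the 10 genes was higher under flow, compared with 38.8% of all genes, and the median difference of the 10 was 0.71 on the log2 scale, compared with -0.03 over all genes. Differences are in log2(TPM + 1), which understates those of low genes. In such bulk RNA a difference in the share of cells that express a gene and a difference in RNA per cell cannot be told apart. No gene of the 10 had all its flow libraries above all its static ones, a pattern found for 0.492% of the genes tested.

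Of the BTG genes, Btg2 differed most. Btg2, a p53-inducible and early-response member of the family, was at 8.0, 10.3 and 18.6 TPM in static cells (lowest, median and highest of 6) and at 17.1, 42.3 and 245 TPM under flow. Flow replicates 5 and 6 were far above the others, at 212 and 245 TPM, and flow replicate 2, the lowest, was the only flow library inside the static range. The log2 difference was 2.13 (standard error 0.60, limma adjusted p = 0.414, and 0.0291 with the block), the 11th largest of all genes tested, and the ratio of the mean TPM was 7.82. Btg1, its close relative, was already high in static cells, at 132, 157 and 176 TPM, and at 160, 170 and 218 TPM under flow. The groups overlapped, with 3 of 6 flow libraries above every static one, and the log2 difference was 0.23 (standard error 0.10, limma adjusted p = 0.998, and 0.207 with the block). In both genes the same-numbered flow library was the higher one in 6 of 6 pairs.

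The 3 GADD45 genes went apart. Gadd45g, the family member first known as a cytokine response gene, was at 73.9, 92.1 and 105 TPM in static cells and at 101, 199.7 and 302 TPM under flow. Flow replicate 2 lay within the static range and the other 5 lay above it. The log2 difference of Gadd45g was 1.08 (standard error 0.20, limma adjusted p = 0.0565, and 0.0153 with the block). Gadd45b, a gene induced by NF-kappaB and TGF-beta signals, was at 191, 227 and 360 TPM in static cells and at 173, 282 and 715 TPM under flow. Its groups overlapped widely, static replicate 6 and flow replicate 6 being the highest of their groups and flow replicate 2 the lowest library of all. Its log2 difference was 0.47 (standard error 0.27, limma adjusted p = 0.998, and 0.226 with the block). Gadd45a, the p53-inducible member, was at 49.0, 54.0 and 57.1 TPM in static cells and at 40.1, 50.2 and 68.4 TPM under flow. Flow replicate 2 was the highest and flow replicate 6 the lowest of the 12 libraries, so the flow group spanned the whole static range. The log2 difference was -0.03 (95% interval -0.26 to 0.20, limma adjusted p = 0.998, and 0.900 with the block), and 2 of 6 pairs were higher under flow. Exons of Gadd45a overlap a non-coding transcript on the opposite strand in GENCODE M21, and directional libraries were used.

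The p53 pair showed small differences that were not called. Cdkn1a was at 56.7, 61.1 and 69.7 TPM in static cells and at 64.9, 79.8 and 91.7 TPM under flow. The groups overlapped, with flow replicates 2, 5 and 6 highest, so that the library that stayed near static values for most of the genes had the highest Cdkn1a. Its log2 difference was 0.32 (standard error 0.10, limma adjusted p = 0.680, and 0.165 with the block). Mdm2 was at 71.8, 83.1 and 89.0 TPM in static cells and at 85.4, 99.6 and 114 TPM under flow. All flow libraries of Mdm2 but replicate 2 were above the static range. That of Mdm2 was 0.29 on the log2 scale (standard error 0.08, limma adjusted p = 0.389, and 0.142 with the block). The intervals of both differences, 0.10 to 0.55 for Cdkn1a and 0.12 to 0.47 for Mdm2, lay under the 1.5-fold threshold of 0.58.

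Myc was about level with Gadd45g in static cells, at 79.3, 88.0 and 99.2 TPM, and at 85.4, 195 and 231 TPM under flow. Flow replicate 2 was again inside the static range, while the other 5 flow libraries were between 146 and 231 TPM. The log2 difference of Myc was 0.94 (standard error 0.20, limma adjusted p = 0.0966, and 0.0190 with the block), a ratio of mean TPM of 2.02.

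Plk2, which acts at centriole duplication and is a p53 target, had the highest mean of the 10 under flow. It was at 166, 184 and 212 TPM in static cells and at 171, 478 and 744 TPM under flow. The value of flow replicate 2 equalled that of its static counterpart to 3 digits, and the other 5 flow libraries were at 323 TPM or more. The log2 difference of Plk2 was 1.21 (standard error 0.28, limma adjusted p = 0.146, and 0.0297 with the block). Plk3, a stress-responsive kinase of the same family, was the lowest of the 10 genes, at 5.48, 6.44 and 13.0 TPM in static cells and at 7.50, 14.3 and 34.2 TPM under flow. Its groups overlapped because static replicates 5 and 6 were high, while flow was higher in each of the 6 pairs. The log2 difference of Plk3 was 1.00 (standard error 0.31, limma adjusted p = 0.642, and 0.00774 with the block). Exons of Plk3 overlap the gene Tctex1d4 on the opposite strand, and those of Cdkn1a overlap an unnamed transcript on the opposite strand.

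**Figure D2:**
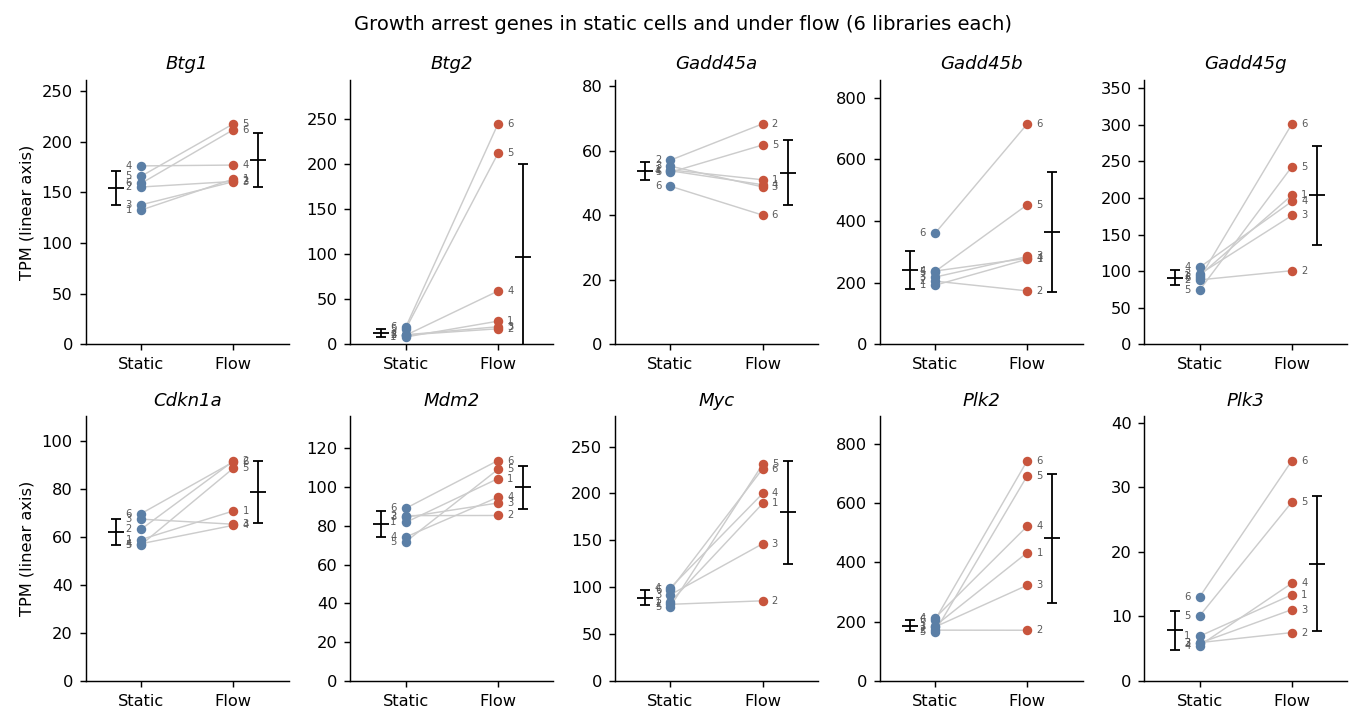
TPM of each gene in each library of the flow experiment (points, with replicate numbers, same-numbered libraries joined by lines) and the mean with SD beside them, on linear axes from 0 (the SD of Btg2 under flow, 104 TPM, reaches below 0). Flow replicate 2 sits at or near static values for Myc and Plk2, and flow replicates 5 and 6 are the highest for Btg2, Gadd45b, Gadd45g and Plk3.

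**Figure D3:**
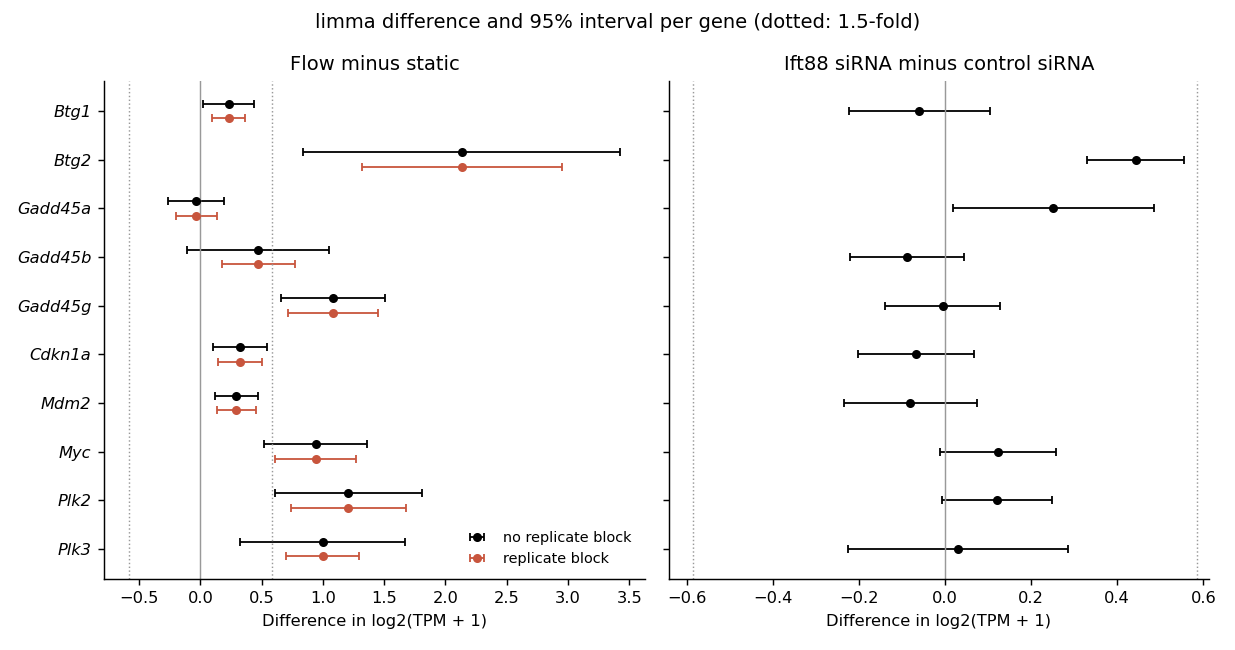
Difference in log2(TPM + 1) of each gene with its 95% interval from limma, flow minus static at left without and with the replicate block, and Ift88 siRNA minus control siRNA at right (separate horizontal scales, dotted lines at 1.5-fold). The points of Btg2, Gadd45g, Myc, Plk2 and Plk3 lie to the right of the threshold under flow. Without the block the intervals of Myc (0.52 to 1.36) and Plk3 (0.32 to 1.67) cross it. With siRNA only the interval of Btg2 clears 0 by a wide margin, from 0.33 to 0.56.

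The size of the flow difference varied from pair to pair. Over the 10 genes the median difference within a pair was 0.69 for pair 1, 0.13 for pair 2, 0.53 for pair 3, 0.62 for pair 4, 1.16 for pair 5 and 1.10 for pair 6. Pair 2 was the lowest of the 6 for Btg2, Gadd45b, Gadd45g, Mdm2, Myc, Plk2 and Plk3, but not for Gadd45a, where it was the highest at 0.26, nor for Cdkn1a, at 0.53. Btg2 had the widest range, from 0.70 in pair 2 to 3.65 in pair 6, and Plk3 was nearly level in pairs 4 to 6, between 1.32 and 1.38.

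**Figure D4:**
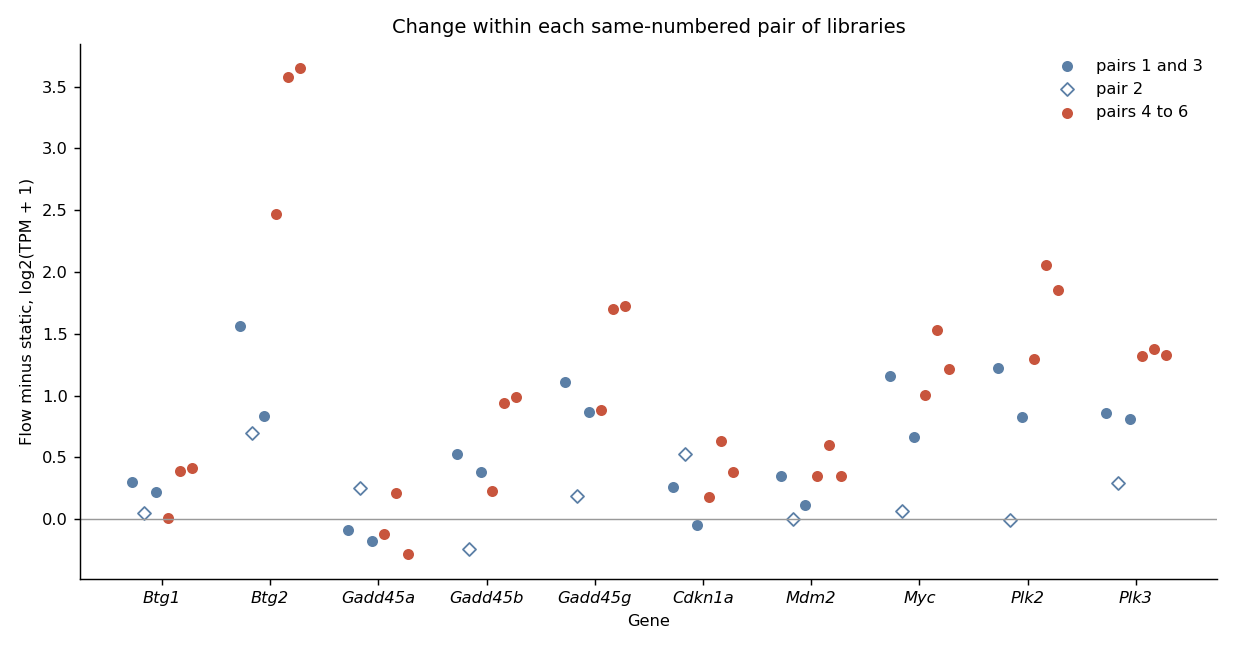
Flow minus static in log2(TPM + 1) within each same-numbered pair of libraries, for each gene, with pairs 1 and 3 in blue, pair 2 as open diamonds and pairs 4 to 6 in red. Pair 2 lies near 0 for Myc and Plk2, and Btg2 reaches 3.58 and 3.65 in pairs 5 and 6.

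The calls depended on single pairs. With the replicate block and pair 2 left out, 6 genes were called, the 5 above and Gadd45b (log2 difference 0.61, limma adjusted p = 0.00498), against 1.19% of all genes called higher. Leaving out pair 1 left 0 called, against 0.0701% of all genes, with limma adjusted p between 0.0933 for Plk3 and 0.238 for Plk2 among the 5, although their differences were between 0.90 and 2.25. Leaving out pair 3 left 4 (not Plk2), against 0.447% of all genes called higher. Leaving out pair 4 left 2 (Gadd45g and Plk3, against 0.333%) and pair 5 left 1 (Plk3, against 0.291%). Without pair 6, which holds the library with conflicting labels, Gadd45g (0.95, limma adjusted p = 0.0426) and Plk3 (0.93, limma adjusted p = 0.0259) were called, against 0.361% of all genes. In that fit Btg2 was at 1.83 (limma adjusted p = 0.0743), Myc at 0.89 (0.0688) and Plk2 at 1.08 (0.0903). Counted as static in the fit without pairing, that library brought the differences of these 5 down to between 0.49 (Plk3) and 1.10 (Btg2), with 0 called and 2 of the 10 genes at an unadjusted p under 0.05, against 1.59% of all genes. Without flow replicate 2 and without pairing, Gadd45g, Myc and Plk2 were called (limma adjusted p from 0.000219 to 0.00106), against 0.668% of all genes called higher.

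The libraries numbered 1 to 3 and those numbered 4 to 6 were also compared, because earlier results of these data separate them. No label or text of the paper names these sets and they were drawn from the same libraries, so the values that follow describe these libraries and are not independent evidence. Within replicates 4 to 6 alone, Btg2, Gadd45g, Myc and Plk2 were called, 4 of 10 against 0.490% of all genes called higher. Within replicates 1 to 3 alone, 0 of the 10 were called, while 0.0443% of all genes were called higher, and 5 were at an unadjusted p under 0.05, against 1.66% of all genes. Btg2 was at 9.53 ± 1.33 TPM in static and 20.7 ± 4.38 TPM in flow libraries 1 to 3 (SD, n = 3 each) and at 15.1 ± 4.60 and 172 ± 99.0 TPM in libraries 4 to 6. The difference in its flow response between the sets was 2.20 (standard error 0.59, limma adjusted p = 1.00), and in the blocked fit 2.20 (standard error 0.31, limma adjusted p = 0.0335). With the block, 0.158% of all genes had a larger response in replicates 4 to 6, and without it 0% were called in either direction, with 3 of the 10 genes at an unadjusted p under 0.05, against 2.09% of all genes. For the other 9 genes the block gave differences between -0.06 (Gadd45a) and 1.06 (Plk2), and limma adjusted p of 0.511 or more. Plk2 was at 180 ± 7.26 and 309 ± 132 TPM in static and flow libraries 1 to 3, and at 194 ± 24.9 and 653 ± 116 TPM in libraries 4 to 6. The replicate sets and the libraries that make them up cannot be told apart. Without the block and without flow replicate 4 the Btg2 difference was 2.84 (limma adjusted p = 0.00154). With any other single library left out it was 1.83 to 2.36, with limma adjusted p of 0.999 or more.

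The pathway partners of these genes gave no calls under flow when all libraries were fitted. In lists of 10 partner groups, 0 genes were then called by limma either with or without the block. At an unadjusted p under 0.05 stood at most 1 gene of a list without the block and at most 3 with it. Of 20 other p53 targets, 7 means were higher and 13 lower under flow, where 38.8% of all genes were higher. That share was 50.8% after median-of-ratios scaling of the libraries, so a count by sign depends on the scaling. The differences of these targets ran from -0.36 for Sesn1 to 0.23 for Pmaip1, with a median of -0.04. Among the 9 genes of the list of p53 and its regulators, the differences ran from -0.16 (Chek2) to 0.13 (Hipk2), and Trp53 itself was at -0.0012. In these fits Cdkn1a and Mdm2, at 0.32 and 0.29, were above the highest of the 20 other targets. With library weights the 2 genes were lower, at 0.17 and 0.26.

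None of the listed cell cycle genes was called under flow. All 6 other CDK inhibitors had lower means under flow, from -0.37 for Cdkn1c to -0.08 for Cdkn2c, with 1 at an unadjusted p under 0.05. Of 12 G1 cyclins, CDKs and Rb family genes, the differences ran from -0.10 (Rbl2) to 0.17 (Ccnd1), and of 15 genes of S and G2/M phase from -0.03 (Mcm6) to 0.14 (Tyms). In the S and G2/M list 9 means were higher, and 15 after median-of-ratios scaling of the libraries, so the count by sign followed the scaling. The other polo-like kinases, Plk1 and Plk4, which act in mitosis and at the centriole, were at -0.07 and 0.20.

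The partners of Myc, BTG and GADD45 proteins also gave no calls when all libraries were fitted. Of 15 known Myc targets 14 had higher means, from -0.24 for Ldha to 0.17 for Nop58, with a median of 0.07 and 0 at an unadjusted p under 0.05. In the Myc network, 9 of 11 genes were tested, from -0.45 for Mxi1, which encodes a repressor that competes for the partner MAX, to 0.12 for Mlx. Mxi1 was called lower when flow replicate 2 was left out (log2 difference -0.64, limma adjusted p = 0.0483) and when pair 2 was left out of the blocked fit (-0.63, limma adjusted p = 0.00579). The other BTG and TOB genes with CCR4-NOT subunits ran from -0.08 (Tob2) to 0.15 (Btg3). Among the GADD45 partners the range was -0.13 (Gadd45gip1) to 0.34 (Map2k3, the kinase MKK3 upstream of p38, limma adjusted p = 0.451, and 0.168 with the block). Interferon-stimulated genes ran from -0.32 (Irf7) to 0.45 (Rsad2), with 0 of 11 called. In the blocked limma fit 5 were at an unadjusted p under 0.05, against 11.1% of all genes.

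The genes whose profile was most like each member were taken over the 12 libraries of the flow experiment by Pearson's r of log2(TPM + 1). These are descriptions that share the flow contrast and the libraries, and carry no test. Btg2 was closest to Arc (r = 0.994), Atf3 (0.992) and Zfp36 (0.992), all known early-response genes. Plk2 and Myc were the nearest to each other (r = 0.990), with Srf (0.990) and Klf6 (0.983) next for Plk2, and Mapk6 (0.980) and Gadd45g (0.978) next for Myc. Gadd45g was closest to Enc1 (0.983), Myc and Mapk6. Plk3 was closest to Skil (0.972), Dusp8 and Dlc1, and Mdm2 to Mafk (0.964), Dusp4 and Plaur.

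The remaining genes had other neighbours. Btg1 was closest to Aff1 (r = 0.953), Dnajb4 and Oit3, Gadd45b to Mtmr10 (0.962), Frmd4a and Pip5k1a, and Cdkn1a, with the weakest match, to Sgms1 (0.892), Dnajb1 and Mier1. Gadd45a was closest to Trmt9b (0.959), Rab40c and Lmf1. Among the members themselves, Gadd45a was negatively correlated with Gadd45b (r = -0.64) and with Plk3 (-0.47), whereas Btg2 and Plk3 had r = 0.956 (n = 12).

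The order of the levels changed between static and flow. In static cells Gadd45b was the highest at 241 ± 60.7 TPM (SD, n = 6), followed by Plk2 at 187 ± 18.3 and Btg1 at 154 ± 16.6 TPM, and the ranges of neighbours in this order overlapped. Gadd45g, Myc and Mdm2 followed at 91.2, 88.9 and 81.1 TPM, also with overlapping ranges. Cdkn1a at 62.2 and Gadd45a at 53.8 TPM were lower than these, and Btg2 at 12.3 ± 4.29 and Plk3 at 7.89 ± 3.03 TPM, whose ranges overlapped, were lowest. Under flow Plk2 stood first at 481 ± 219 TPM and above Gadd45b (364 ± 194 TPM) in 5 of 6 libraries, though their ranges overlapped. Btg2 moved from the lowest pair to 96.3 ± 104 TPM, with a range that overlapped those of Mdm2 above and Cdkn1a below it. The 10 genes together made up 897 to 1150 TPM in static libraries and 961 to 2723 TPM in flow libraries, the lowest being flow replicate 2.

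The second comparison asked whether the genes depended on Ift88. The target was lower in every knockdown library, at 1.71, 1.27, 1.28 and 0.917 TPM with Ift88 siRNA and at 4.21, 4.08, 4.15 and 4.12 TPM with control siRNA (log2 difference -1.17, limma adjusted p = 0.00212). In the flow experiment Ift88 was at 4.64 ± 0.380 TPM in static and 4.43 ± 0.979 TPM in flow libraries (SD, n = 6 each). Of the 10 genes, 0 were called at a change of more than 1.5-fold, against 0.223% of the 11209 genes tested. One gene, Btg2, passed the adjusted p alone, which 0.455% of all genes did in the higher direction. The median difference of the 10 was 0.01, compared with 0.02 over all genes, and 5 were higher, compared with 55.0% of all genes.

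Btg2 was at 298, 285, 298 and 284 TPM with Ift88 siRNA and at 208, 208, 223 and 217 TPM with control siRNA. The groups did not overlap, which was so in the higher direction for 5.79% of all genes, and all 4 knockdown libraries were above all 4 controls. The mean rose from 214 ± 7.43 to 291 ± 7.90 TPM (SD, n = 4), a ratio of 1.36 and a log2 difference of 0.44 (standard error 0.05, limma adjusted p = 0.00223, from 0.00292 to 0.0166 when single libraries were left out). It was the 6th of 11209 genes by p and the 164th by size among those higher. Interferon-stimulated genes were also higher with Ift88 siRNA, and the part of this in the Btg2 result was not tested. All 8 of that list that were tested had higher means and 4 were called, Ccl5 (1.30), Oasl1 (1.01), Ifit1 (0.97) and Isg15 (0.79), all with limma adjusted p between 5.01e-05 and 0.0238. The list's summed level was 121 to 138 TPM in control and 260 to 283 TPM in knockdown libraries.

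**Figure D5:**
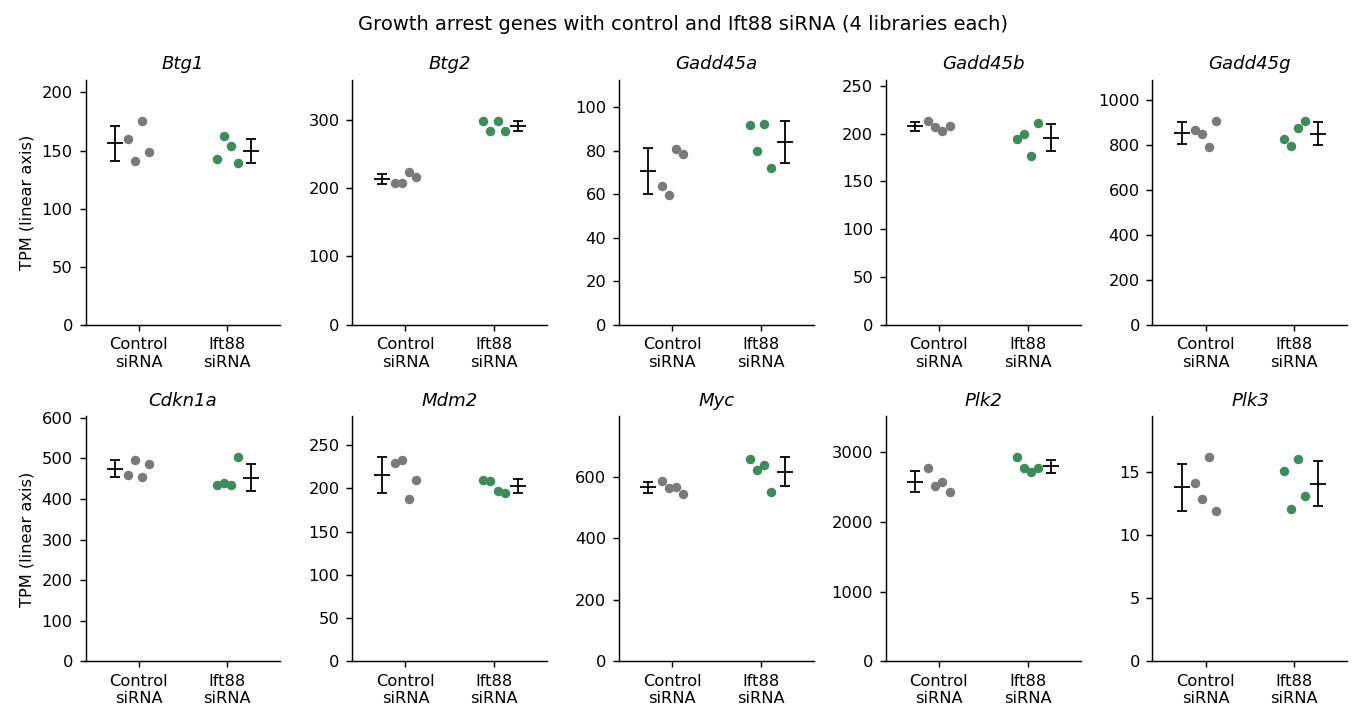
TPM of each gene in the 4 libraries with control siRNA and the 4 with Ift88 siRNA, as points in replicate order with mean and SD beside them, on linear axes from 0. The groups are apart for Btg2, at 208 to 223 and 284 to 298 TPM, and overlap for the other 9 genes.

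Of the other 9 genes, none passed the adjusted p. Gadd45a was at 91.8, 80.0, 92.5 and 72.0 TPM with Ift88 siRNA and at 64.0, 59.6, 80.7 and 78.4 TPM with control siRNA. Its groups overlapped, and the log2 difference was 0.25 (95% interval 0.02 to 0.48, limma adjusted p = 0.326). Myc was at 656, 622, 638 and 550 TPM with Ift88 siRNA and at 587, 564, 568 and 543 TPM with control siRNA, 3 of 4 knockdown libraries being above all controls. Its log2 difference was 0.12 (95% interval -0.01 to 0.26, limma adjusted p = 0.406). Plk2 was at 2922, 2765, 2711 and 2767 TPM with Ift88 siRNA and at 2772, 2514, 2573 and 2418 TPM with control siRNA, and overlapped likewise, with a difference of 0.12 (95% interval -0.01 to 0.25, limma adjusted p = 0.390). The intervals of Btg1, Gadd45b, Gadd45g, Cdkn1a, Mdm2 and Plk3 all included 0, with differences between -0.09 (Gadd45b) and 0.03 (Plk3), and their outer limits, -0.24 for Mdm2 and 0.29 for Plk3, lay within 1.5-fold.

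The levels in the siRNA experiment had their own order. With control siRNA Plk2 stood first at 2569 ± 150 TPM (SD, n = 4), then Gadd45g at 853 ± 48.7, Myc at 565 ± 18.4 and Cdkn1a at 474 ± 21.0 TPM, each above the next in all libraries. Mdm2 (215 TPM), Btg2 (214 TPM) and Gadd45b (208 TPM) had overlapping ranges, and Btg1 (156 TPM), Gadd45a (70.7 TPM) and Plk3 (13.8 TPM) were lowest. With Ift88 siRNA Btg2 moved above Mdm2, with ranges that did not overlap. The experiments share no group, so levels under flow, such as 481 TPM for Plk2 and 203 TPM for Gadd45g, stand beside these without a test.

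The partner lists gave few differences in the siRNA experiment. Outside the interferon list, 0 genes of the pathway lists were called. The other p53 targets ran from -0.35 (Ppm1d, a phosphatase that restrains p53) to 0.44 (Fas, a death receptor), with 11 of 20 means higher, against 55.0% of all genes, and 6 at an unadjusted p under 0.05, against 13.9% of all genes. Of the 15 Myc targets, 14 had lower means with Ift88 siRNA, where 55.0% of all genes were higher. They ran from -0.31 for Odc1, the first enzyme of polyamine synthesis, to 0.05 for Ddx18. At an unadjusted p under 0.05 stood 4 of them, against 13.9% of all genes. The CDK inhibitors ran from -0.29 (Cdkn1b, limma adjusted p = 0.406) to 0.29 (Cdkn2b, limma adjusted p = 0.0742), and the Myc network from -0.31 (Mga) to 0.39 (Mxd1, limma adjusted p = 0.156). The S and G2/M genes ran from -0.28 (Ccna2) to 0.14 (Cdc6), with 8 of 15 means higher. The lists of G1 regulators (-0.17 for Ccnd1 to 0.29 for Rbl2), p53 regulators (-0.28 for Usp7 to 0.15 for Trp53bp1), GADD45 partners (-0.12 for Map2k3 to 0.10 for Gadd45gip1) and BTG partners (-0.06 for Btg3 to 0.08 for Cnot1) were narrower or similar.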

How the data were processed

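Values were the authors' deposited TPM, 1 table per experiment, whose sum is 1000000 in each library, so that they are not counts and do not carry the RLE scaling of the methods. The methods give Trimmomatic, kallisto against the Ensembl mouse transcriptome and tximport, whereas the submitters' processing notes list fastp 0.20.0, FastQC 0.11.8, MultiQC 1.8 and kallisto 0.46.2. Of 21509 genes, 78 have no symbol.

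From these, log2(TPM + 1) was fitted by limma 3.58.1 under R 4.3.3 (lmFit, eBayes with trend) for the genes averaging 1 TPM or more, p-values were adjusted over all of them by the Benjamini-Hochberg method, and genes were called at an adjusted p under 0.05 and a change over 1.5-fold. Flow and static libraries share replicate numbers. After subtracting group means, libraries with equal numbers were correlated over genes at r of 0.294, 0.463, 0.425, 0.468, 0.662 and 0.600. Of 6 static libraries, 5 were closest to the flow library of their own number (static replicate 1 to flow replicate 3). The numbers were therefore taken to pair the libraries, and blocked values are given where a call changes. The script was tested on simulated data. Tables and figures were made in Python 3.11.15 (pandas 2.3.3, numpy 2.4.6, matplotlib 3.10.9).

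The members and gene lists were chosen with earlier results of these data known. Named genes were all members, Ift88, the 3 nearest genes of each member, and the called, lowest and highest genes of each list. CDK inhibitors at an unadjusted p under 0.05 in the blocked flow fit were named as well. Promoters are RefSeq's on GRCm38.p6, and overlapping exons are from GENCODE M21 on GRCm38. No protein sequence was used here.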

Additional observations from a re-analysis of the deposited data

Results flagged for a closer look

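In static cells, Gadd45b was at 360 TPM in replicate 6 and at 191 to 237 TPM in the other 5, a gap that is large for the spread of the group. Its same-numbered flow library, the one with conflicting labels, also had the highest Gadd45b of its group, at 715 TPM. With Ift88 siRNA, Cdkn1a was at 503 TPM in replicate 4 and at 434 to 438 TPM in the other 3. Of 40 groups examined for such single libraries, 2 stood out, and about 1 in 20 does so by chance.

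The flow response of Btg2 in replicates 4 to 6 exceeded that in replicates 1 to 3 by 2.20 on the log2 scale with the replicate block (limma adjusted p = 0.0335), and by the same amount without the block, where the limma adjusted p was 1.00. The sets come from earlier results of these same libraries, so this p-value is a description and not independent evidence.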

How the results depend on the processing

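The number of genes called under flow, 12, was 2 with no filter on low values, 28 with median-of-ratios scaling, 86 with library weights, 68 with the replicate block, 0 with flow replicate 6 counted as static, 5 in replicates 1 to 3 and 56 in replicates 4 to 6, and 5 to 87 with single libraries left out (87 without flow replicate 2). The members called, 0, were 1 with median-of-ratios scaling, 5 with library weights or the replicate block, 4 in replicates 4 to 6, and 0 to 3 with single libraries left out. Leaving single pairs out of the block, an alternative chosen after seeing the data, gave 8, 193, 51, 38, 34 and 41 genes and 0, 6, 4, 2, 1 and 2 members for pairs 1 to 6. Over 28 alternatives Gadd45g was called in 9, Plk3 in 7, Myc in 6, Btg2 and Plk2 in 5, Gadd45b in 1 and the other 4 in 0. The sign of Gadd45a turned with flow replicate 6 counted as static (0.10), without pair 6 in the block (0.018) and with single libraries left out (-0.11 to 0.043).

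With Ift88 siRNA, 25 genes were called, 6 with no filter on low values, 48 with library weights, 44 with the replicate block, 71 with no fold threshold and 11 to 23 with single libraries left out. The members called, 0, were 1 with no fold threshold (Btg2), and 0 in every fit that left out a library. The siRNA replicate numbers did not pair the libraries (r of 0.046, 0.003, 0.259 and 0.176). Of 4 control siRNA libraries, 2 were closest to the Ift88 siRNA library of their own number. Signs turned for Btg1 with library weights (0.0046), and with single libraries left out for Gadd45g (-0.042 to 0.025) and Plk3 (-0.032 to 0.10), all near 0. For the difference between replicate sets, the genes called, 0, were 8 with library weights, 18 with the replicate block and 0 to 34 with single libraries left out (34 without flow replicate 4). The members called, 0, were 1 with the block and 0 to 1 with single libraries left out. Gadd45a turned sign there with median-of-ratios scaling (0.0047), library weights (0.0024) and single libraries left out (-0.22 to 0.088). The cause of these changes was not tested. TPM keep no depth of a library, so counting error is unknown.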
